A study of Mus musculus with 80 samples.

Results

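Microglial RNA pulled down from sorted cells was set against microglial RNA pulled down from the unsorted cell suspension of the mouse brain. The sorted side, Sort-TRAP, held 16 libraries: 4 of autoMACS-TRAP, 3 of autoMACS to Tyto-TRAP, 5 of Tyto-TRAP and 4 of FACSAria-TRAP. The unsorted side, Cell-TRAP, held 4 libraries. Members were taken by the sort method and TRAP fraction in the labels, with no measured value used, and made up 20 of the 80 samples of the series. All mice were Cx3cr1(Jung)-cre/Ert2+;NuTRAP+ and had been given tamoxifen intraperitoneally (100 mg/kg daily, starting near 3 months of age), and brains were collected at 5 to 8 months. The suspension was made in the same way for all 5 groups, by enzymatic and mechanical dissociation for 30 min at 37 °C. autoMACS retained CD11b+ cells on magnetic beads, whereas Tyto (a closed cartridge) and FACSAria (a droplet cytometer) sorted CD11b+CD45+eGFP+ cells, and autoMACS to Tyto applied both in turn. Each library came from a hemisphere of 1 mouse. Cell-TRAP came from 4 mice (2 male, 2 female) and Sort-TRAP from 10 other mice (6 male, 4 female), 6 of which gave 2 sorted libraries. No mouse gave both an unsorted and a sorted library, so the sort and the set of mice cannot be told apart, and p-values measure the spread between these libraries.

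Microglia are the resident macrophages of the brain. In Cx3cr1-NuTRAP mice, tamoxifen switches on an eGFP-tagged ribosomal protein (L10a) in cells that use Cx3cr1, the fractalkine receptor gene. Translating ribosome affinity purification (TRAP) captures the tagged ribosomes with an antibody to GFP and so recovers the mRNA bound to them. In Cell-TRAP the pull-down was made from a lysate of all brain cells in the suspension, and in Sort-TRAP from a lysate of cells already selected by surface antigens. Macrophages at the borders of the brain also use Cx3cr1 and can carry the tag.

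Total expected counts ran from 12214821 to 17220508 in Cell-TRAP and from 11795698 to 20168116 in Sort-TRAP. Replicates of a group correlated at 0.987 to 0.997 (Pearson's r across genes, log scale), pairs of sorted libraries at 0.984 to 0.997, and Cell-TRAP with sorted libraries at 0.916 to 0.946; genes are not independent replicates. For a named gene the level is its CPM (read counts scaled to the library size, after TMM normalisation), and summed levels and shares of lists as plain fractions of the library total. Several libraries stood apart from their group. Cell-TRAP replicate 1 had the highest neuronal and border-associated macrophage transcripts of its group, autoMACS-TRAP replicate 4 carried more pericyte and noncoding nuclear RNA than the other autoMACS-TRAP libraries, and the 4 FACSAria-TRAP libraries with autoMACS to Tyto-TRAP replicate 3 held liver and adipocyte transcripts. Their values are given beside the results they touch.

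Most genes that differed were lower after sorting. In edgeR's quasi-likelihood test on the mean of the 4 sorts, each with equal weight, 3526 of 14953 genes (23.6%) were called lower at an FDR under 0.1 and a fold change above 2, and 125 (0.836%) were called higher. Tissue-TRAP counted as a group in the filter, so some genes were tested only because of it. With Tissue-TRAP left out, 13593 genes were tested, and 2622 (19.3%) were called lower and 143 (1.05%) higher. With it, at an FDR under 0.05 with no limit on the fold, 5097 genes (34.1%) fell and 2980 (19.9%) rose. The 4 Cell-TRAP libraries and the 16 sorted libraries did not overlap for 3654 genes (24.4%), among them 2582 of the genes called lower and 18 of those called higher. Genes called lower lay at a median log2 fold change of -4.21, and 2974 of them were below 1 CPM in Sort-TRAP. Of the 125 called higher, 95 stayed below 5 CPM in both groups. Taken alone against Cell-TRAP, autoMACS called 3435 genes lower and 98 higher, autoMACS to Tyto 3241 and 145, Tyto 3462 and 111, and FACSAria 3275 and 223. In all 4 sorts, 2913 genes were called lower and 21 higher. The split between directions depended on the scaling and on the set of genes tested. With TMM over 24 TRAP libraries, 36.9% of genes past the looser rule were higher. With Tissue-TRAP left out it was 50.4%, where the set of genes tested changed along with the fit. Scaling on the microglial marker list gave 4.42% and moved the median of all genes from -0.05 to -0.36.

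Transcripts of other brain cells were lower after sorting. Of the study's astrocytic markers, 128 of 138 tested were called lower and none higher, with a median log2 fold change of -5.97 (all genes tested, -0.05). For the oligodendrocytic markers 135 of 191 were called lower (median -4.03), for the neuronal markers 93 of 97 (median -5.68), and for the endothelial markers 171 of 233, with 1 called higher (median -4.02). Smaller lists moved in the same direction: 17 of 18 genes of oligodendrocyte progenitors (median -5.45), 15 of 16 of pericytes and smooth muscle (median -4.05), 16 of 18 of fibroblasts (median -2.90), 9 of 10 of ependyma, 13 of 13 of choroid plexus (median -3.85) and 4 of 6 of erythroid cells were called lower. Without Tissue-TRAP in the filter and fit, fewer members fell under the looser rule in some lists. The counts were 81 neuronal, 13 progenitor and 10 choroid plexus genes, against 95, 17 and 13 with it. In bulk RNA, fewer cells of a type and less RNA per cell cannot be told apart. The fall was already present in each sort alone, with astrocytic medians from -6.19 in autoMACS-TRAP to -5.47 in FACSAria-TRAP and endothelial medians from -4.34 in Tyto-TRAP to -3.30 in FACSAria-TRAP.

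**Figure D1:**
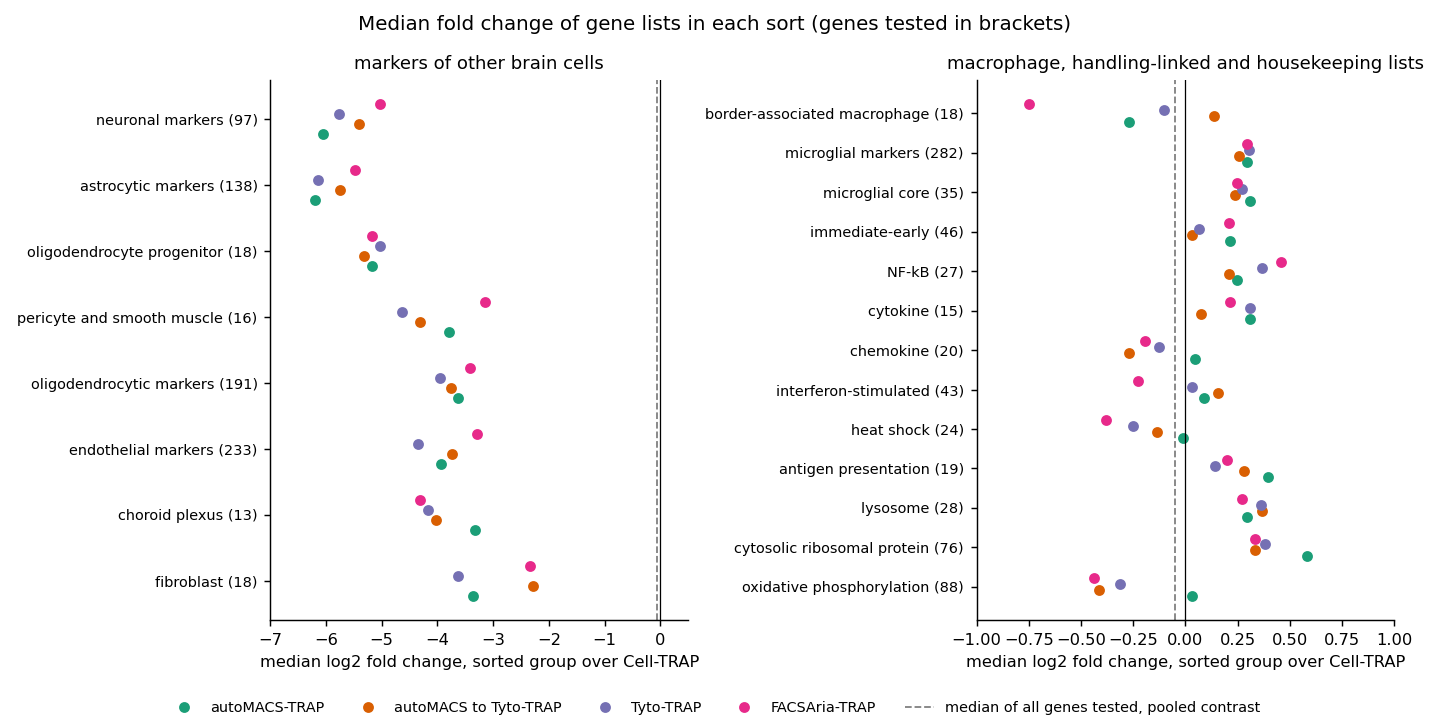
Median log2 fold change over Cell-TRAP (x axis) of each gene list in each of the 4 sorts (coloured points); the number of genes tested is in brackets and the dashed line is the median of all genes tested in the pooled contrast. The other-cell lists plotted lie between -6.19 and -2.29 in every sort, whereas the lists of the right panel stay between -0.75 and 0.58, and oxidative phosphorylation genes separate autoMACS-TRAP (0.03) from FACSAria-TRAP (-0.44).

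Astrocyte genes gave the largest falls. Gpr37l1, an astrocytic receptor gene (mm10 chr1:135160250-135167681), was at 136, 124, 158 and 161 CPM in the 4 Cell-TRAP libraries and at 0 to 0.956 CPM (median 0.0552) in the sorted ones. The groups were far apart, with a log2 fold change of -9.86 (SE 0.25, edgeR adjusted p = 1.81e-20). Aqp4, the water channel of astrocyte endfeet, was at 65.2, 61.5, 69.0 and 71.8 CPM before sorting and at most 0.521 CPM afterwards (log2 fold change -8.37, SE 0.19). The glutamate transporter gene Slc1a2 went from 656 to 749 CPM in Cell-TRAP to between 0.684 and 12.7 CPM in sorted libraries, with the 5 Tyto-TRAP libraries at a mean of 6.04 and the 4 autoMACS-TRAP libraries at a mean of 1.02. Gja1, the connexin 43 gene, lay at 123 to 153 CPM against 0.200 to 1.91 CPM (log2 fold change -7.34, SE 0.15), and Aldoc, a glycolytic enzyme gene used by astrocytes, at 208 to 311 CPM against 0.331 to 3.45 CPM. Of genes of at least 20 CPM in Cell-TRAP that were called lower in each sort without overlap, the others among the 12 lowest fold changes were Bcan, which encodes the matrix proteoglycan brevican (-9.14), Ntsr2, a neurotensin receptor gene (-8.95), Dio2, the thyroid hormone deiodinase gene (-8.72), Gjb6, a further astrocytic connexin gene (-8.66), Zfp366 (-8.63), Cntfr, a receptor gene for ciliary neurotrophic factor (-8.61), Scg2, the neuronal secretogranin gene (-8.54), the glutamate receptor gene Grin2c (-8.46), Luzp2 (-8.43) and Fam107a (-8.39). All 12 lay above 14 CPM in every Cell-TRAP library and below 3 CPM in every sorted library. Predicted genes were passed over in this ranking. The size of such folds rests on few counts, since Gpr37l1 had 59 counts and Dio2 26 counts over all 16 sorted libraries.

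Oligodendrocyte markers did not fall together. Mbp, which encodes myelin basic protein, stayed readable, at 36.5 to 67.9 CPM (median 49.02) after sorting against 87.9, 237, 115 and 222 CPM before (log2 fold change -1.73, SE 0.15). Mag, the myelin-associated glycoprotein gene, was at 43.4 to 78.1 CPM in Cell-TRAP and 37.9 to 47.7 CPM in Sort-TRAP, and the groups overlapped (-0.38, SE 0.09). Mog was low throughout, at 2.90 to 6.77 CPM before sorting and at most 0.446 CPM after it (-4.80, SE 0.42). Of the progenitor genes, Pdgfra was at 1.21 to 2.71 CPM before and at most 0.780 CPM after sorting, and Cspg4 at 3.90 to 9.48 CPM against 0 to 7.15 CPM, with overlap.

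Neuronal transcripts were low even in Cell-TRAP and varied there. Syt1, the synaptic vesicle calcium sensor, was at 62.2, 18.5, 17.4 and 22.1 CPM before sorting, replicate 1 being the highest, and at 0 to 0.910 CPM (median 0.189) after it. Snap25, a gene of the vesicle fusion machinery, was at 102, 48.1, 31.0 and 42.6 CPM and then at 0.0736 to 2.21 CPM (log2 fold change -6.90, SE 0.26). Rbfox3, which encodes the neuronal nuclear antigen NeuN, fell by 3.99 and Stmn2 by 6.58 on the log2 scale. Without Cell-TRAP replicate 1 the median of the neuronal list was -5.26.

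Vessel transcripts were also strongly lower, with exceptions. Cldn5, the tight junction gene of brain endothelium, was at 130, 123, 144 and 145 CPM in Cell-TRAP and at 0.116 to 10.53 CPM (median 1.398) in Sort-TRAP, where FACSAria-TRAP replicate 4 was highest. Its log2 fold change was -6.25 (SE 0.35, edgeR adjusted p = 4.91e-14). Flt1, a VEGF receptor gene, was at 190 to 243 CPM and then 1.15 to 21.9 CPM (-5.41, SE 0.28). Pecam1 lay at 134 to 153 CPM before and 58.7 to 107 CPM after sorting and did not reach the fold threshold (-0.90, SE 0.09, edgeR adjusted p = 4.29e-09). The pericyte genes Rgs5 and Pdgfrb fell, with log2 fold changes of -7.41 and -4.27, and autoMACS-TRAP replicate 4 held 2.76 CPM of Pdgfrb against 0.342 to 0.458 in the other 3 libraries of its group. Ttr, the choroid plexus transthyretin gene, varied in Cell-TRAP from 39.2 to 191 CPM and in sorted libraries from 1.14 to 54.02 CPM, with overlap. Igf2, a growth factor gene of the meninges, was at 20.5 to 67.7 CPM before and at most 2.13 CPM after sorting, and the haemoglobin gene Hba-a1 at 26.2 to 84.1 CPM before and 0.911 to 12.6 CPM after it. Acta2 and Hbb-bs were not tested.

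**Figure D2:**
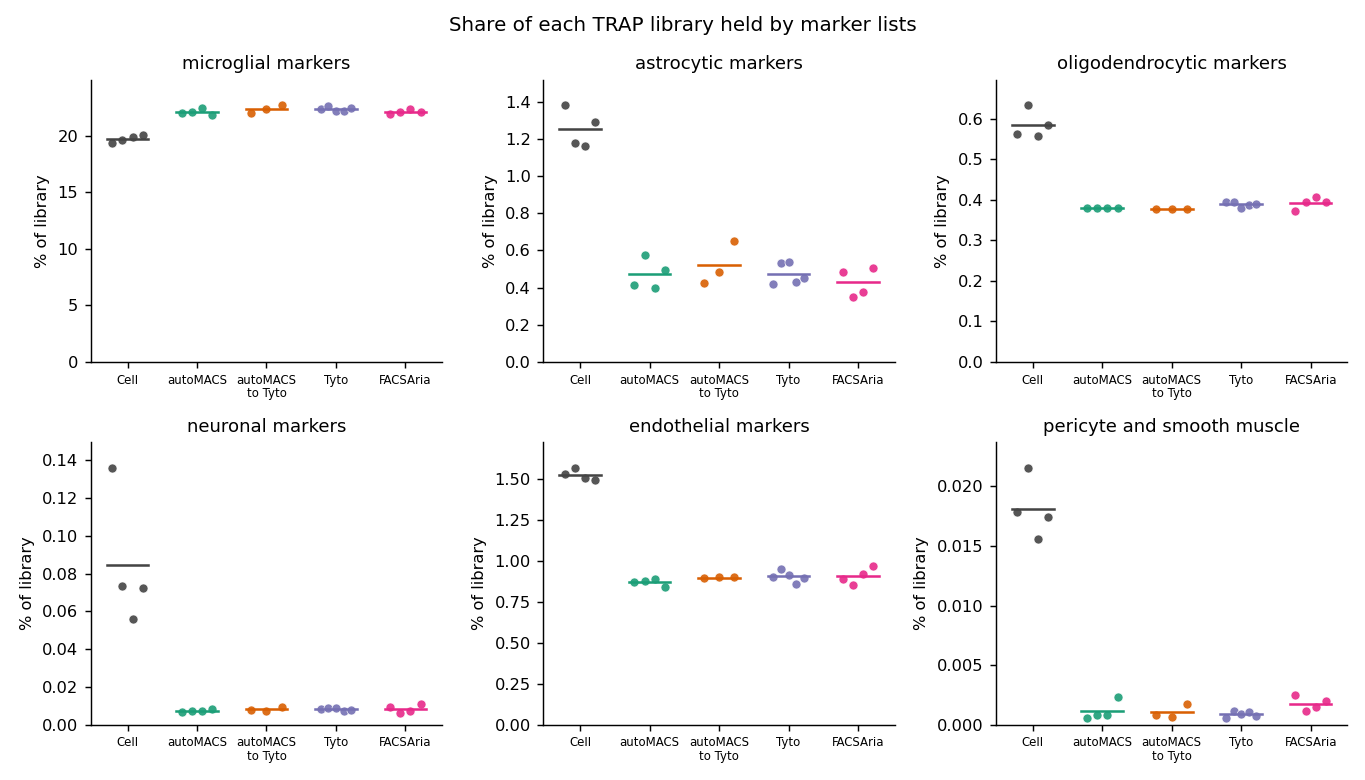
Share of each TRAP library held by 6 marker lists, in percent of the library total (y axis, from 0); each point is a library and each bar the plain mean of its group. Microglial markers sit at 19.4 to 20.1% in Cell-TRAP and 21.8 to 22.7% in Sort-TRAP, and the 5 other lists are lower in every sorted library than in any Cell-TRAP library.

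The share of each library held by these lists was also lower. Astrocytic markers went from 1.25% ± 0.103 (SD, n = 4) in Cell-TRAP to 0.474% ± 0.079 (n = 16), endothelial markers from 1.52% ± 0.0314 to 0.895% ± 0.0327, and oligodendrocytic markers from 0.585% ± 0.0342 to 0.385% ± 0.00957. Neuronal markers went from 0.0844% ± 0.0353 to 0.00802% ± 0.00123, and pericyte and smooth muscle genes from 0.0181% ± 0.0025 to 0.00121% ± 0.000614. For these 5 lists, and for progenitor, fibroblast, ependymal and erythroid genes, the exact permutation test over libraries (two-sided, 4 against 16) gave p = 0.000206, the smallest it can give, or 3e-04 after Benjamini-Hochberg adjustment over 16 lists. Choroid plexus genes gave p = 0.000413 in the exact permutation test (adjusted 0.00055). The test takes libraries as independent, although the 16 sorted ones came from 10 mice, so these p-values may be too small.

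A few genes held most of what was left. Apoe, the apolipoprotein E gene, made up 77.4% of the astrocytic list's level in Sort-TRAP, and it was at 5584, 3262, 3464 and 3569 CPM in Cell-TRAP against 2596 to 5787 CPM (median 3816) in Sort-TRAP, with overlap (log2 fold change -0.03, SE 0.15, edgeR adjusted p = 0.899). The 10 astrocytic markers not called lower held 89.6% of the list's level after sorting and 37.9% before it. Tns3, a focal adhesion gene, made up 99.3% of the progenitor list in Sort-TRAP, at 356 to 633 CPM against 435 to 538 CPM. In the oligodendrocytic list Sema4d, a semaphorin gene, was the highest at 401 to 604 CPM (median 485), and the 56 members not called lower held 95.7% of the list's level. In the endothelial list Ly6e led at 1008 to 1440 CPM and Msn, which encodes moesin, followed at 781 to 1268 CPM, and the 62 members not called lower held 93.7%. Neuronal markers were the exception, where the 4 members not called lower held 28.8% of the sorted level. Sema4d (-0.05), Tns3 (-0.16) and Ly6e (-0.29) changed sign when libraries were scaled on the microglial list.

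Microglial genes rose by small steps. Of the 282 microglial markers, 181 rose and 8 fell under the looser rule, 2 were called higher and none lower, and the median log2 fold change was 0.27. Their share of the library went from 19.7% ± 0.318 (SD, n = 4) to 22.2% ± 0.257 (n = 16) with no overlap (exact permutation p = 0.000206, adjusted 3e-04). The median was 0.26 to 0.31 in the 4 sorts. The size of the list's change depends on the scaling. With libraries scaled on the list itself the median was -0.04, near 0 by construction, and 58 members rose and 80 fell. That setting therefore cannot show the direction of the list as a whole. Csf1r, the receptor gene for the survival factor CSF1, was at 10210, 9933, 9945 and 9692 CPM in Cell-TRAP and at 9871 to 14940 CPM (median 13100) in Sort-TRAP, with overlap (log2 fold change 0.38, SE 0.06, edgeR adjusted p = 2.82e-06). The purinergic receptor gene P2ry12 rose by a like amount (0.38, SE 0.06). Both these changes were no longer past the looser rule on the microglial scaling (0.06 and 0.07). Tmem119, a microglia-defining membrane protein gene, was at 3039, 3654, 3678 and 3651 CPM before and 2793 to 3900 CPM (median 3349) after sorting and overlapped (-0.07, SE 0.06, edgeR adjusted p = 0.307). Relative to the microglial list, Tmem119 was lower, at -0.39 (adjusted p = 9.33e-06). Cst3, the cystatin C gene, was also level with TMM (0.01) and lower on the microglial scaling (-0.30).

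Within the 36 microglial core genes, 25 of 35 tested rose and 2 fell, and on the microglial scaling 7 rose and 12 fell. P2ry13, a further ADP receptor gene, was at 939, 877, 1130 and 1108 CPM in Cell-TRAP and 1176 to 2113 CPM (median 1661) in Sort-TRAP, without overlap (log2 fold change 0.72, SE 0.09, edgeR adjusted p = 2.58e-07). It was also higher on the microglial scaling (0.41). The 2 that fell were the transcription factor gene Runx1 (-0.22, SE 0.07) and Tyrobp, the DAP12 adaptor gene (-0.18, SE 0.07), and neither passed the looser rule without Tissue-TRAP in the fit (edgeR adjusted p = 0.0831 and 0.119). Cd180, a Toll-like receptor relative, was 1 of the 2 microglial markers called higher (not on the microglial scaling, 0.70), at 145, 114, 170 and 175 CPM before and 150 to 483 CPM (median 285) after sorting, with overlap (1.01, SE 0.17).

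Genes of the sort antigens and of the label rose a little more than the microglial list. Itgam, which encodes CD11b, was at 2209, 2022, 2262 and 2290 CPM in Cell-TRAP and 2667 to 4114 CPM (median 3144) in Sort-TRAP, with a log2 fold change of 0.60 (SE 0.07, edgeR adjusted p = 1.1e-07). Ptprc, which encodes CD45, was at 342, 269, 344 and 328 CPM and then 443 to 631 CPM (median 551), a change of 0.77 (SE 0.10). Cx3cr1, the gene that drives the label, was at 2844, 2712, 3185 and 2971 CPM before and 3696 to 4966 CPM (median 4546) after sorting (0.60, SE 0.06). None of these 3 overlapped between groups, and on the microglial scaling they were still higher, by 0.29, 0.46 and 0.29. Rpl10a, the parent gene of the ribosome tag, rose by 0.46 (SE 0.06). Rangap1, the parent gene of the nuclear tag, rose by 0.50 in the pooled comparison (SE 0.07), with overlap between groups. Its change was 0.08 in autoMACS-TRAP (edgeR adjusted p = 0.482) and 0.55 to 0.76 in the other sorts. Reads of the transgenes and the mouse genes were not separated in the counts.

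Lists of border-associated macrophages, neutrophils and lymphocytes held few calls, where 23.6% of all genes tested were called lower. Of the 9 monocyte genes tested, 3 were called lower. Of the 18 border-associated macrophage genes 1 was called lower and 4 fell under the looser rule (median -0.22), and their share was 0.334% ± 0.124 in Cell-TRAP and 0.327% ± 0.0832 in Sort-TRAP (exact permutation p = 0.846). Cell-TRAP replicate 1 held 0.519% and the other 3 libraries 0.262 to 0.281%, and without replicate 1 the difference changed sign, to 0.0512 percentage points (exact permutation p = 0.337 after adjustment). Mrc1, the mannose receptor gene, was at 978, 383, 388 and 341 CPM in Cell-TRAP and 340 to 1112 CPM (median 538) in Sort-TRAP, and Cd163, a scavenger receptor gene, at 384, 147, 180 and 162 CPM against 82.01 to 388 CPM. The groups overlapped for both. Lyve1, a hyaluronan receptor gene of perivascular macrophages, was the list's only call, at 254, 124, 103 and 80.2 CPM before and 23.5 to 142 CPM (median 53.4) after sorting (log2 fold change -1.21, SE 0.24, edgeR adjusted p = 0.000151). Under the looser rule 2 of the monocyte genes rose and 3 fell. Ccr2, a receptor of recruited monocytes, was at 3.98 to 7.85 CPM and then 6.37 to 11.8 CPM (0.57, SE 0.17), whereas Ly6c2 went from 6.20 to 11.1 CPM to at most 0.521 CPM. Neutrophil genes (5 tested, 1 rose), lymphocyte genes (5 tested, none past either rule) and monocyte genes gave adjusted exact permutation p-values of 0.0612, 0.411 and 0.749 for their shares. The neutrophil share was 0.00051% in Cell-TRAP and 0.00113% in Sort-TRAP, with overlap. S100a8, S100a9, Cd3e and Cd79a, which define neutrophils and lymphocytes, were not tested. S100a8 and S100a9 reached at most 2 and 4 counts in a Cell-TRAP library and 38 and 97 counts in a sorted one.

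Early response genes are known to be induced in microglia by warm dissociation, and both groups had been through it. Of 46 immediate-early genes, 12 rose and 6 fell under the looser rule, none was called higher and 3 were called lower (median 0.18). Among all genes tested, 19.9% rose, 34.1% fell and 23.6% were called lower. On the microglial scaling none of the 46 rose and 14 fell (median -0.13). On that scaling 414 of all 14953 genes rose and 8962 fell (median -0.36). Fos, an AP-1 subunit gene, was at 3417, 3837, 2966 and 2888 CPM in Cell-TRAP and 3571 to 5973 CPM (median 4174) in Sort-TRAP, with overlap (log2 fold change 0.40, SE 0.12, edgeR adjusted p = 0.00728). Its partner Jun changed by 0.30 (SE 0.10) and by -0.02 on the microglial scaling. Fosb was at 325 to 633 CPM before and 468 to 1779 CPM after sorting (0.82, SE 0.24), and the nuclear receptor gene Nr4a1 at 112 to 321 CPM before and 221 to 1000 CPM after it (0.93, SE 0.32). On the microglial scaling neither Fos, Fosb nor Nr4a1 passed the looser rule (adjusted p = 0.621, 0.0832 and 0.103). Maff, a small Maf gene, fell (-1.32, SE 0.26).

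Among NF-kB targets 16 of 27 rose and 3 fell (median 0.32, or 0.01 on the microglial scaling, where 7 rose and 5 fell). Relb, an NF-kB subunit gene, was at 14.8, 15.6, 21.6 and 17.6 CPM in Cell-TRAP and 20.7 to 47.7 CPM (median 35.6) in Sort-TRAP (log2 fold change 1.05, SE 0.17, edgeR adjusted p = 7.22e-06). Nfkbia, the feedback inhibitor gene, overlapped at 433 to 698 CPM against 478 to 996 CPM (0.17, SE 0.16). Of 15 cytokine genes 6 rose and none fell, and on the microglial scaling 1 rose and 1 fell. Il1b, the interleukin-1 beta gene, was at 69.5, 26.5, 17.0 and 27.9 CPM before and 51.03 to 184 CPM (median 84.9) after sorting, and only Cell-TRAP replicate 1 lay inside the sorted range (1.33, SE 0.31, edgeR adjusted p = 0.000796). Il1a rose by 0.60 (SE 0.21) and did not pass on the microglial scaling (edgeR adjusted p = 0.223). Tnf was at 207, 72.6, 74.4 and 66.0 CPM before and 57.6 to 170 CPM (median 92.6) after sorting, and no change was detected (-0.15, SE 0.24). Of 20 chemokine genes none rose and 4 fell. Cxcl12 and Cx3cl1, which are made by vascular cells and neurons, fell by 5.89 and 5.68 on the log2 scale, whereas the microglial chemokine gene Ccl3 was level (0.03, SE 0.19). Of 43 interferon-stimulated genes 8 rose and 7 fell (median 0.05), where 19.9% of all genes rose and 34.1% fell, and on the microglial scaling 1 rose and 12 fell. The antiviral genes Cmpk2 and Rsad2 fell (-1.39, SE 0.17 and -1.13, SE 0.22), and the RNA sensor gene Dhx58 rose (0.71, SE 0.15).

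**Figure D3:**
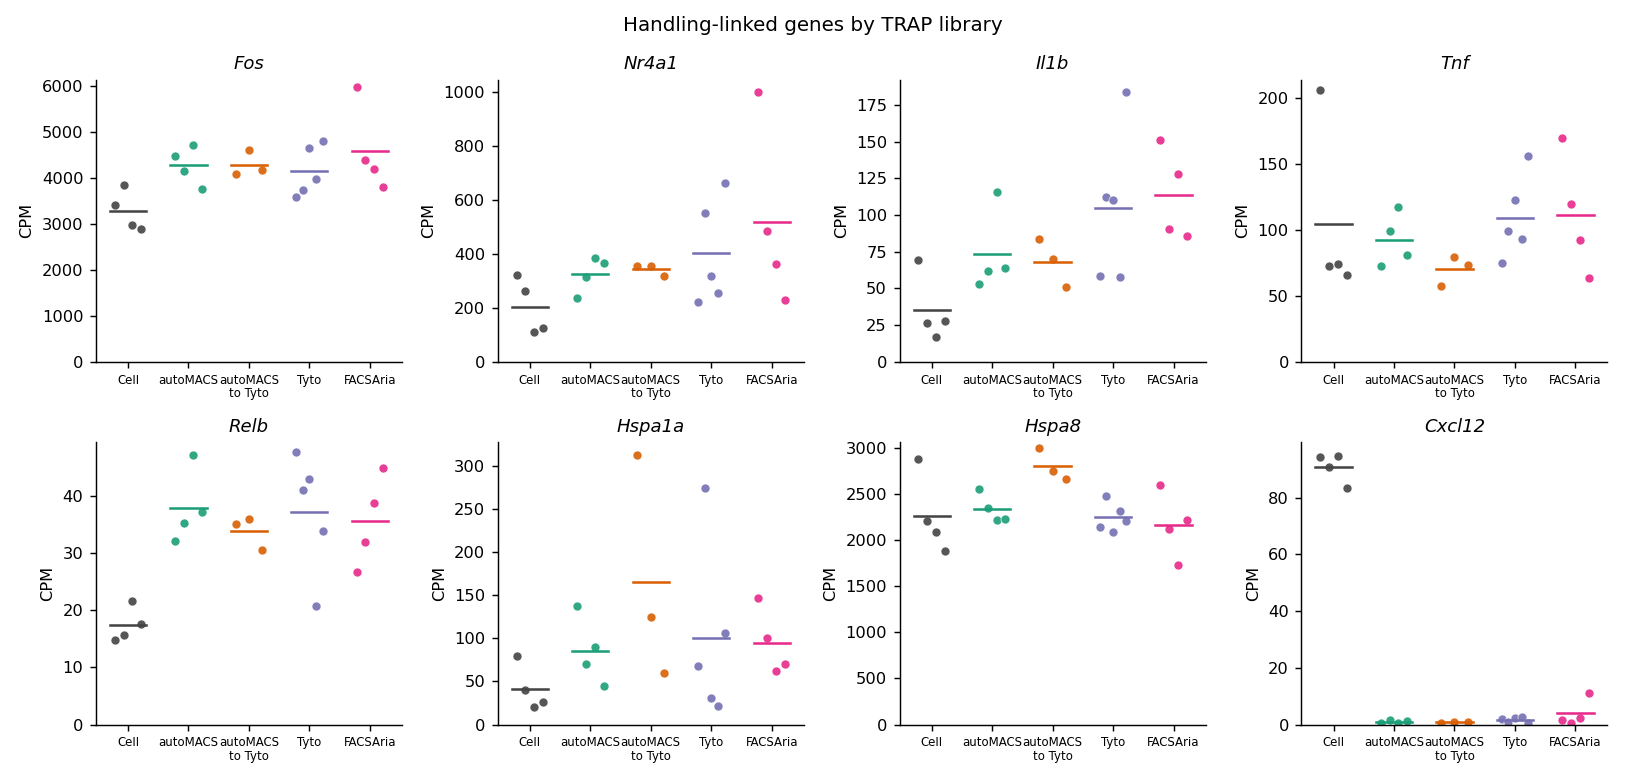
CPM (y axis, from 0) of 8 genes of the handling-linked lists in each TRAP library (points) with the plain mean of each group (bars). Fos, Nr4a1 and Il1b means are higher in each of the 4 sorts than in Cell-TRAP, Tnf and Hspa8 overlap between groups, Hspa1a spreads from 21.4 to 312 CPM among sorted libraries, and Cxcl12 falls from 83.6 to 94.8 CPM to at most 11.2 CPM.

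Stress genes gave no shared direction with TMM, where 19.9% of all genes rose and 34.1% fell. On the microglial scaling more fell than rose in each list, and of all genes tested 414 rose and 8962 fell. Of 24 heat shock genes 4 rose and 12 fell (median -0.23; none and 17 on the microglial scaling). Hspa1a and Hspa1b, near-identical inducible Hsp70 genes between which reads may be split, were the only ones called higher, and Hspa1b did not pass the looser rule (edgeR adjusted p = 0.0634). Hspa1a was at 79.4, 39.7, 19.9 and 25.7 CPM in Cell-TRAP and 21.4 to 312 CPM (median 80.4) in Sort-TRAP (log2 fold change 1.39, SE 0.53, edgeR adjusted p = 0.0305), with an adjusted p of 0.106 when Cell-TRAP replicate 3 was left out. Hspb1, a small heat shock gene, went from 38.99 to 58.9 CPM to 0.766 to 6.03 CPM (-4.12, SE 0.25), and the constitutive Hspa8 was level (0.07, SE 0.09). Of 20 endoplasmic reticulum chaperone genes 6 rose and 6 fell (none and 13 on the microglial scaling). Among them Hsp90b1 rose (0.34, SE 0.07) and Dnajb9 fell (-0.54, SE 0.08). In the integrated stress response 10 of 24 rose and 5 fell (3 and 9 on the microglial scaling), led by Mthfd2, a mitochondrial folate enzyme gene, at 11.1, 11.2, 12.05 and 13.04 CPM before and 16.1 to 38.97 CPM (median 29.6) after sorting (1.30, SE 0.16, edgeR adjusted p = 1.45e-07). On the microglial scaling Mthfd2 still rose but fell short of the fold threshold (0.98). Aldh18a1, a proline synthesis gene, rose as well (0.73, SE 0.12). Of 21 antioxidant genes 6 rose and 10 fell (none and 17 on the microglial scaling). The metallothionein genes Mt1 and Mt2 fell by 1.32 and 4.42 on the log2 scale, and Ftl1, the ferritin light chain gene, rose (0.60, SE 0.13).

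Of 27 hypoxia and glycolysis genes 5 rose and 10 fell, shares near those of all genes (19.9% and 34.1%). Slc2a1, the glucose transporter gene of brain endothelium, was at 549, 651, 479 and 461 CPM in Cell-TRAP and 65.7 to 101 CPM (median 73.3) in Sort-TRAP (log2 fold change -2.80, SE 0.10, edgeR adjusted p = 3.7e-18), whereas the hexokinase gene Hk2 rose (0.45, SE 0.06) and so did Pfkfb3, which activates glycolysis (0.59, SE 0.08). None of 23 cholesterol synthesis genes rose and 10 fell, with Insig1 at 35.4 to 38.3 CPM before and 12.4 to 18.9 CPM after it (-1.29, SE 0.08). Of 28 lysosome genes 25 rose and none fell (median 0.32), including Ctsl (0.52, SE 0.06) and Lgmn (0.48, SE 0.05), which encode proteases. On the microglial scaling 3 lysosome genes rose and 6 fell (median 0.01). Of 19 antigen presentation genes 10 rose and none fell (1 and 2 on the microglial scaling), with the peptide transporter gene Tap2 at 138 to 164 CPM before and 168 to 251 CPM after sorting (0.51, SE 0.09). Of 18 complement and Fc receptor genes 10 rose and 1 fell (4 and 7 on the microglial scaling), with C3 at 7.52 to 15.2 CPM before and 8.95 to 40.3 CPM after sorting (0.94, SE 0.28; adjusted p = 0.0568 on the microglial scaling). Genes of disease-associated microglia counted 12 of 30 rising and 3 falling (4 and 8 on the microglial scaling), among them Itgax at 27.1 to 35.3 CPM and then 38.8 to 105 CPM (0.91, SE 0.21) and Clec7a at 18.3 to 35.7 CPM and then 32.8 to 72.5 CPM (0.80, SE 0.17). Cell cycle genes counted 6 of 26 rising and 1 falling (1 and 1 on the microglial scaling).

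Ribosomal protein genes and respiratory chain genes went opposite ways. Of 76 cytosolic ribosomal protein genes 71 rose and 1 fell (median 0.39), and on the microglial scaling 26 rose and 3 fell (median 0.08). Rpl39 was at 29.0, 20.3, 23.5 and 19.3 CPM in Cell-TRAP and 33.4 to 61.3 CPM (median 45.6) in Sort-TRAP (log2 fold change 0.98, SE 0.11), Rps12 at 78.8 to 88.8 CPM and then 111 to 196 CPM (0.80, SE 0.09), and Rps27l, the gene that fell, at 11.5 to 17.8 CPM and then 6.97 to 18.7 CPM (-0.62, SE 0.10). Of 88 oxidative phosphorylation genes 52 fell and 5 rose (median -0.32). Their median was 0.03 in autoMACS-TRAP, -0.31 in Tyto-TRAP, -0.41 in autoMACS to Tyto-TRAP and -0.44 in FACSAria-TRAP. Ndufb9, a complex I subunit gene, was at 32.8 to 44.2 CPM in Cell-TRAP, at a mean of 32.8 CPM in autoMACS-TRAP and at means of 22.9 to 23.97 CPM in the other 3 sorts, and Cox6c, a complex IV subunit gene, had means of 34.2 CPM in Cell-TRAP, 32.4 in autoMACS-TRAP and 19.7 to 22.0 in the other sorts. Of 15 nuclear long noncoding RNAs 5 were called lower, where 23.6% of all genes tested were. The neuronal Meg3 fell by 3.85 on the log2 scale, whereas Malat1 was at 29.7, 140, 65.2 and 99.9 CPM in Cell-TRAP and 16.6 to 463 CPM (median 44.04) in Sort-TRAP, the highest being autoMACS-TRAP replicate 4, whose group otherwise lay at 20.7 to 25.6 CPM.

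Only 4 genes of at least 20 CPM, predicted genes aside, were called higher in the pooled comparison and in each sort alone without overlap between groups. Adamts16, a secreted metalloprotease gene (mm10 chr13:70727808-70841810), was at 7.71, 4.14, 5.22 and 8.57 CPM in Cell-TRAP and 12.0 to 30.9 CPM (median 23.3) in Sort-TRAP, a log2 fold change of 1.81 (SE 0.23, edgeR adjusted p = 2.92e-07). Ugt1a7c, a glucuronosyltransferase gene (mm10 chr1:88095001-88220002), was at 49.4, 51.3, 49.8 and 50.2 CPM before sorting and fell into separate levels after it, at 57.6 to 78.2 CPM in 4 libraries (autoMACS to Tyto-TRAP replicate 3, Tyto-TRAP replicates 3 and 4, FACSAria-TRAP replicate 1) and at 161 to 204 CPM in the other 12. It overlaps the other genes of its locus, which share exons, so its value is uncertain. Lpl, which encodes lipoprotein lipase, was at 26.5, 25.8, 34.3 and 28.9 CPM and then 43.9 to 166 CPM (median 68.8), a change of 1.42 (SE 0.29, edgeR adjusted p = 0.000191). Mthfd2, described above with the stress genes, was the other. Fam129a, a member of the endothelial list, was called higher too, at 25.4 to 37.7 CPM before and 41.8 to 106 CPM (median 87.4) after sorting (1.39, SE 0.12), although autoMACS-TRAP alone, at a mean of 52.8 CPM, did not reach the fold threshold.

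Liver and adipocyte transcripts made up 30 of the 125 genes called higher. These lists, of 24 liver secretory genes and 10 adipocyte genes, were drawn up after the values had been seen. The summed liver genes were at 10.6 to 37.04 CPM in Cell-TRAP, 12.6 to 46.8 in autoMACS-TRAP and 14.4 to 46.3 in Tyto-TRAP, and at 90.2 to 187 in FACSAria-TRAP. autoMACS to Tyto-TRAP replicate 3 held 242 CPM and its 2 other libraries 38.6 and 63.8 CPM. The albumin gene Alb, for example, was at 5.55 to 21.6 CPM in Cell-TRAP, at 52.7 to 104 CPM in FACSAria-TRAP and at 145 CPM in autoMACS to Tyto-TRAP replicate 3. Fabp4, the adipocyte fatty acid binding protein gene, had a mean of 3.19 CPM in Cell-TRAP, 4.45 in autoMACS-TRAP and 18.8 in FACSAria-TRAP. The input RNA of the same preparations, taken before the pull-down, held 167 to 1091 CPM of the liver genes for FACSAria, 144 to 861 CPM for autoMACS to Tyto, 33.9 to 261 CPM for autoMACS and 44.8 to 153 CPM for Tyto, against 19.3 to 31.8 CPM for the unsorted suspension. Without those 5 sorted libraries, 2 liver and 2 adipocyte genes were called higher in place of 21 and 9, and 90 genes in all. The source of these transcripts was not tested.

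The sorts differed from one another in far fewer genes than they differed from Cell-TRAP. An F test over the 4 sorted groups called 624 genes (4.17%) at an FDR under 0.1 and a fold above 2 between any pair of sorts. Of these, 303 had their lowest mean in autoMACS-TRAP and 356 their highest in FACSAria-TRAP, and 43 of the genes called higher and 337 of those called lower in the pooled comparison were among them. Fat1, an atypical cadherin gene, was at 14.1 to 22.6 CPM in Cell-TRAP and at means of 2.36 in autoMACS-TRAP, 4.82 in autoMACS to Tyto-TRAP, 5.29 in Tyto-TRAP and 6.42 in FACSAria-TRAP. Dlc1 followed the same order, from 8.80 to 16.2 CPM, against 33.98 to 42.8 CPM in Cell-TRAP. Ttbk1, a neuronal kinase gene, was at means of 0.763 CPM in autoMACS-TRAP and 2.86 CPM in FACSAria-TRAP against 4.42 to 6.70 CPM in Cell-TRAP. Aldh1a7 was below 2 CPM in every library of both groups.

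Transcript length moved with the sort. Among genes of at least 20 CPM in Sort-TRAP, grouped by the longest annotated transcript, the median log2 fold change of autoMACS-TRAP over Cell-TRAP was 0.24 below 1 kb (155 genes) and -0.25 above 8 kb (425 genes). FACSAria-TRAP ran the other way, from -0.18 to 0.21, as did autoMACS to Tyto-TRAP (-0.18 to 0.19) and Tyto-TRAP (-0.09 to 0.14). autoMACS-TRAP minus the mean of the other sorts was 0.38 for the shortest class and -0.42 for the longest. Of the genes above 8 kb 9.65% were called between the sorts, against 0.355% of those of 1 to 2 kb. A transcript length was found for 94% of the genes tested. The part of length in the differences between sorts, such as the respiratory chain genes above, was not tested.

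**Figure D4:**
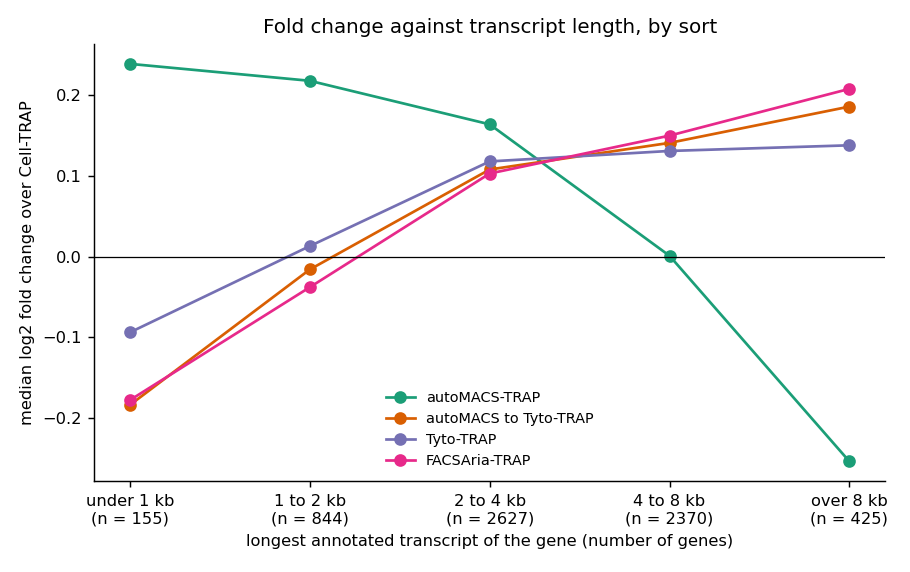
Median log2 fold change over Cell-TRAP (y axis) of genes of at least 20 CPM in Sort-TRAP, grouped by the longest annotated transcript (x axis, number of genes below each class), for each sort. The line of autoMACS-TRAP falls from 0.24 to -0.25 with length, and those of the other 3 sorts rise.

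Some transcripts varied between mice more than between the 2 libraries of a mouse. Fkbp5, a co-chaperone gene induced by glucocorticoids and looked at after its values had been seen, was at 708, 893, 447 and 443 CPM in Cell-TRAP and 91.0 to 384 CPM (median 143) in Sort-TRAP, without overlap (log2 fold change -1.53, SE 0.32, edgeR adjusted p = 0.000244). Sorted libraries spanned 4.22-fold, whereas the 2 libraries of each of the 6 mice sorted by 2 methods were within a ratio of 1.11. The edgeR test took these libraries as independent, so the SE and p-value of Fkbp5 may be too small. Lama3, a laminin gene, was at 7.78, 5.81, 3.50 and 2.66 CPM in Cell-TRAP. It was at 0 to 0.128 CPM in all 7 libraries of autoMACS-TRAP and autoMACS to Tyto-TRAP, at 0.221 and 0 CPM in Tyto-TRAP replicate 2 and FACSAria-TRAP replicate 2, which came from 1 mouse, and at 3.25 to 6.07 CPM in the 7 others. Capn11, a calpain gene also named after its values were seen, was at 0 in these same 9 libraries and at 3.47 to 14.8 CPM in the 7 others, against 1.84 to 5.50 CPM in Cell-TRAP. The autoMACS and autoMACS to Tyto libraries shared 3 mice and shared none with Tyto-TRAP or FACSAria-TRAP. Between sorts that shared no mouse, an effect of the sort and one of the mouse cannot be told apart for any gene.

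**Figure D5:**
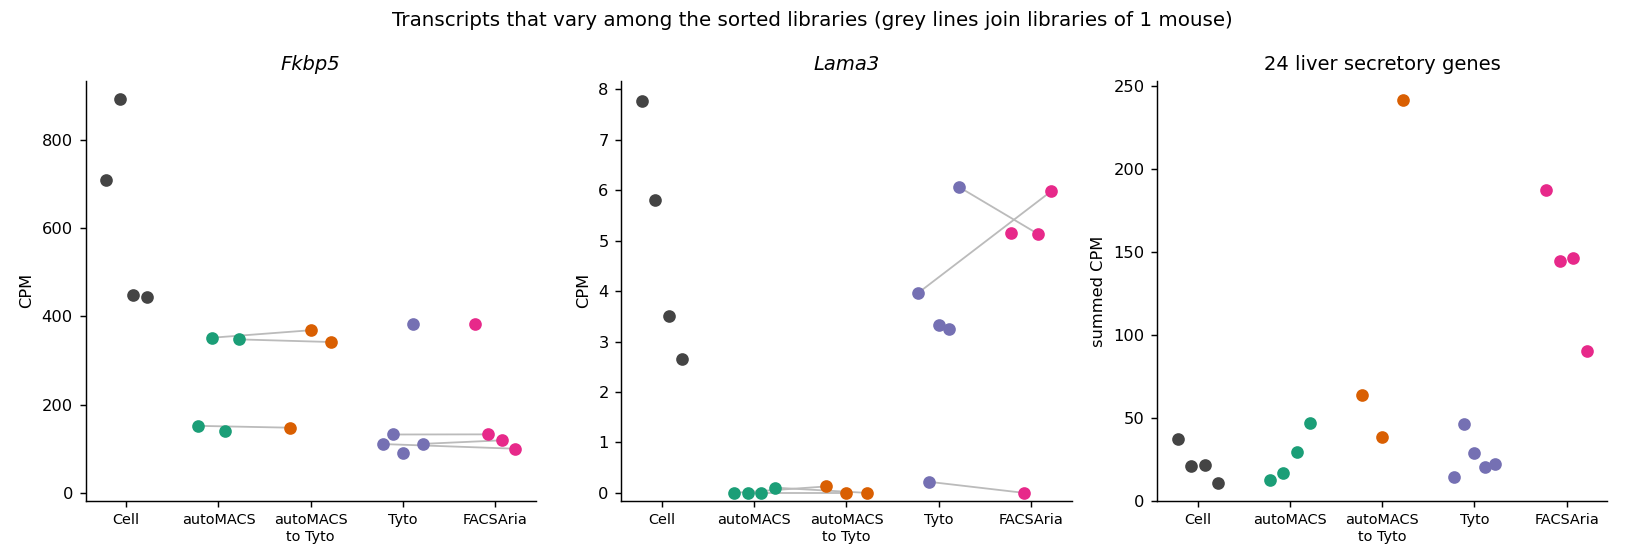
CPM of Fkbp5 and Lama3 and summed CPM of 24 liver secretory genes (y axes) in each TRAP library (points, coloured by group), with grey lines joining the 2 libraries of a mouse. Fkbp5 is 443 to 893 CPM in Cell-TRAP and near-equal within each joined pair, Lama3 is near 0 in 9 of 16 sorted libraries, and the liver sum reaches 242 CPM in autoMACS to Tyto-TRAP replicate 3.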

How the data were processed

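RNA-seq of TRAP fractions from Cx3cr1-NuTRAP mouse brain was taken from the authors' deposited table of the sort experiment. The authors made poly(A)-selected stranded libraries (16 PCR cycles), aligned reads to mm10 and removed duplicates in Strand NGS (version 4.0), and the deposited raw columns hold expected counts (33.2442% of values whole). The deposited normalized columns hold log2 values that the authors scaled with DESeq2, and were used only in an alternative. Columns of the input fractions were used only for the liver and adipocyte sums.

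Expected counts were rounded. A gene was tested where every library of at least 1 group had more than 5 counts (14953 of 15919), so a marker could pass through the group in which it is high, and 23 symbols turned into dates were restored from their identifiers. TMM scaling and edgeR's quasi-likelihood test (R 4.3.3, edgeR 4.0.16) were applied to 24 TRAP libraries (Tissue-TRAP included), with group as the only term and the mean of 4 sorts against Cell-TRAP as the contrast. Calls needed an FDR (Benjamini-Hochberg) below 0.1 with a fold over 2, and the looser rule was an FDR under 0.05. The SE is the fold change over the square root of F. Shares were compared by the exact permutation test over libraries. Both this test and the edgeR test took the libraries of 1 mouse as independent. Only the edgeR test was checked on simulated data, with raised and lowered genes in equal numbers and no link between libraries of 1 mouse. A shift mostly in 1 direction was not simulated. Named genes were the largest changes called in all sorts without overlap at 20 CPM or more, the most abundant and most changed members of each list, the sort antigens, driver and tag genes, and 6 genes with the smallest F test p. Among the largest changes, predicted genes (symbols of Gm and a number, ending in Rik, or starting with LOC) were passed over. Members and lists were chosen with earlier results of these data known. The marker lists of the 5 main cell types came from the study's supplement. Alternatives used DESeq2 (1.42.0) and limma (3.58.1).

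Sorted libraries were paired by mouse number: 6 mice gave 2 libraries each, whose deviations from their group means correlated at -0.042 to 0.348 over 6727 genes. No library duplicated another. Some genes that the naming rule picks are not reported here.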

Additional observations from a re-analysis of the deposited data

Results flagged for a closer look

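Over 540 groups of libraries tested, 1 group for 1 gene or share at a time, in 50 the highest or lowest value was separated from the nearest by more than Dixon's 95% critical value, which chance alone would give in about 1 of 20 groups. Where all other libraries of a group were at 0, any count passes this rule. Such flags rest on few counts and do not follow that rate. Cell-TRAP replicate 1 stood apart from its group for 11 results, among them the share of border-associated macrophage genes at 0.519% (against 0.262 to 0.281% in the others), Gjb6 at 38.6 CPM (against 42.98 to 43.3 CPM in the others), Tmem119 at 3039 CPM (against 3651 to 3678 CPM in the others) and Apoe at 5584 CPM (against 3262 to 3569 CPM in the others). Further results of Cell-TRAP replicate 1 were Syt1 at 62.2 CPM (against 17.4 to 22.1 CPM in the others), Pecam1 at 134 CPM (against 151 to 153 CPM in the others) and Mrc1 at 978 CPM (against 340 to 388 CPM in the others). Further results of Cell-TRAP replicate 1 were Cd163 at 384 CPM (against 147 to 180 CPM in the others), Il1a at 247 CPM (against 133 to 139 CPM in the others), Tnf at 207 CPM (against 66.0 to 74.4 CPM in the others) and Ftl1 at 536 CPM (against 417 to 422 CPM in the others). autoMACS-TRAP replicate 4 stood apart from its group for 11 results, among them the share of pericyte and smooth muscle genes at 0.00229% (against 0.000589 to 0.000797% in the others), the share of ependymal genes at 0.000521% (against 0.000202 to 0.000256% in the others), Gjb6 at 0.313 CPM (against 0 in the other libraries) and Aqp4 at 0.469 CPM (against 0.114 to 0.166 CPM in the others). Further results of autoMACS-TRAP replicate 4 were Lama3 at 0.104 CPM (against 0 in the other libraries), Rbfox3 at 1.30 CPM (against 0.221 to 0.343 CPM in the others) and Pdgfrb at 2.76 CPM (against 0.342 to 0.458 CPM in the others). Further results of autoMACS-TRAP replicate 4 were Ccdc153 at 0.313 CPM (against 0 in the other libraries), Meg3 at 8.34 CPM (against 0.828 to 1.03 CPM in the others), Malat1 at 463 CPM (against 20.7 to 25.6 CPM in the others) and Rps12 at 196 CPM (against 152 to 156 CPM in the others). FACSAria-TRAP replicate 4 stood apart from its group for 5 results, among them Grin2c at 0.0650 CPM (against 0 in the other libraries), Foxj1 at 2.34 CPM (against 0 to 0.382 CPM in the others), Ccdc153 at 0.975 CPM (against 0 to 0.0667 CPM in the others) and Cxcl12 at 11.2 CPM (against 0.700 to 2.33 CPM in the others). Further results of FACSAria-TRAP replicate 4 were Cx3cl1 at 1.62 CPM (against 0.390 to 0.509 CPM in the others). Tyto-TRAP replicate 4 stood apart from its group for 4 results, among them Fam107a at 1.37 CPM (against 0.347 to 0.598 CPM in the others), Runx1 at 206 CPM (against 156 to 169 CPM in the others) and Rgs5 at 0.521 CPM (against 0 to 0.116 CPM in the others). Further results of Tyto-TRAP replicate 4 were Fkbp5 at 384 CPM (against 91.0 to 132 CPM in the others). In Cell-TRAP replicate 2, Hsp90b1 at 1024 CPM (against 1257 to 1296 CPM in the others) and Pfkfb3 at 183 CPM (against 207 to 211 CPM in the others) lay apart from its group. In FACSAria-TRAP replicate 1, Vtn at 10.8 CPM (against 3.06 to 3.54 CPM in the others), Ccl3 at 464 CPM (against 207 to 222 CPM in the others) and Fkbp5 at 382 CPM (against 100 to 132 CPM in the others) lay apart from its group. In FACSAria-TRAP replicate 2, Lama3 at 0 CPM (against 5.14 to 5.98 CPM in the others) and Mog at 0.446 CPM (against 0 in the other libraries) lay apart from its group. In Tyto-TRAP replicate 2, Hba-a1 at 8.98 CPM (against 0.911 to 3.15 CPM in the others) and Hspa1b at 639 CPM (against 37.4 to 211 CPM in the others) lay apart from its group. In Tyto-TRAP replicate 3, Clec7a at 65.3 CPM (against 46.9 to 51.6 CPM in the others) lay apart from its group. In Tyto-TRAP replicate 5, Scg2 at 0.0578 CPM (against 0 in the other libraries) lay apart from its group. In autoMACS-TRAP replicate 1, Scg2 at 0.114 CPM (against 0 in the other libraries), Aldh1a7 at 0.0570 CPM (against 0 in the other libraries) and Stmn2 at 0 CPM (against 0.229 to 0.276 CPM in the others) lay apart from its group. In autoMACS-TRAP replicate 2, the share of border-associated macrophage genes at 0.305% (against 0.224 to 0.236% in the others), Dio2 at 0.0572 CPM (against 0 in the other libraries) and Hspb1 at 4.92 CPM (against 2.21 to 2.29 CPM in the others) lay apart from its group. In autoMACS-TRAP replicate 3, Il1b at 115 CPM (against 53.2 to 63.8 CPM in the others) and Lgmn at 5042 CPM (against 4870 to 4897 CPM in the others) lay apart from its group.

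For 6 genes called in the pooled comparison the change from Cell-TRAP differed between the 4 sorted groups by edgeR's F test. The autoMACS and autoMACS to Tyto libraries shared no mouse with Tyto-TRAP or FACSAria-TRAP. Between sorts that shared no mouse, sort and mouse cannot be told apart for any of these genes. The adjusted p was 9.91e-05 for Lama3, 0.00019 for Ttbk1, 0.000208 for Fam129a, 0.000241 for Fat1, 0.000343 for Dlc1 and 0.000397 for Aldh1a7. Against Cell-TRAP, Lama3 changed by -7.12 in autoMACS-TRAP, -6.46 in autoMACS to Tyto-TRAP, -0.53 in Tyto-TRAP and -0.28 in FACSAria-TRAP on the log2 scale, and Fam129a by 0.80, 1.54, 1.50 and 1.72 in the same order. These genes were taken for the smallest F test p, so their p-values are a description of the choice.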

How the results depend on the processing

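The pooled comparison was repeated under 36 alternatives. Leaving out 1 library at a time gave 105 to 140 genes called higher and 3467 to 3567 called lower. The median of the neuronal list ran from -5.92 (without autoMACS to Tyto-TRAP replicate 3) to -5.26 (without Cell-TRAP replicate 1). For shares only the Cell-TRAP libraries were left out in turn, and the neutrophil difference ran from 0.000514 to 0.000661 percentage points (adjusted exact permutation p = 0.0483 without Cell-TRAP replicate 1), and the border-associated macrophage difference from -0.0345 to 0.0512.

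Scaling on the microglial list gave 55 genes called higher, and medians of -0.037 for that list by construction, -4.32 for oligodendrocytic and -5.97 for neuronal markers; it changed the sign of Cst3 (-0.30), Sema4d (-0.051), Tns3 (-0.16), Ly6e (-0.29), Jun (-0.018) and Hspa8 (-0.24). Requiring at least 10 counts in every library removes genes that fell to few counts, and left 25 genes called higher and 424 lower, with medians of 0.21 (microglial), -1.70 (astrocytic), -0.34 (oligodendrocytic), -1.25 (neuronal) and -0.74 (endothelial). A prior count of 2 shrinks low genes and gave -4.82, -2.59, -3.98 and -3.48 for the last 4 lists. limma on the deposited log2 values gave -5.61, -3.11 and -4.33 for astrocytic, oligodendrocytic and neuronal markers. Without Tissue-TRAP in the fit the microglial median was 0.33. The neuronal median was -6.07 with 1 library per mouse, -6.00 without the FACSAria-TRAP group and -6.10 without the 5 libraries richest in liver transcripts, an alternative added after seeing the data, which gave an endothelial median of -4.42. The 4 sorted groups alone gave 394 genes between sorts. The cause of these shifts was not tested beyond the construction named.

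With mouse as a replicate block (limma voom, consensus correlation 0.106), 123 genes were called higher and 3429 lower, 522 differed between sorts, and the oligodendrocytic and neuronal medians were -3.68 and -5.03. Among single genes, Pf4, Aldh1a7, Tyrobp, Hspa1a and Alb most often lost the looser threshold. Folds of genes near 0 counts after sorting rest on the prior count: 116 tested genes had no count in any sorted library.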
